A study of Homo sapiens with 3 samples.

Results

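The genes of the human mitochondrial chromosome and the nuclear pseudogenes copied from it were examined in OCI-Ly10 cells treated with MZ1. Members were chosen by annotation: every gene on chromosome M in GENCODE release 29, and every nuclear pseudogene named as a copy of a mitochondrial ND, CO, ATP, CYB or RNR gene. Of the 15808 genes in the count table, 40 are members: 2 rRNA, 13 mRNA and 14 tRNA genes of the mitochondrial chromosome and 11 nuclear copies. GENCODE lists 37 genes on the chromosome and 394 such copies, so 8 tRNA genes and 383 copies were not analysed here. OCI-Ly10 is an established line of human diffuse large B cell lymphoma, and MZ1 links a ligand of BET bromodomain proteins to one of the VHL ubiquitin ligase, which leads to degradation of the BET proteins. All 3 libraries carry the same label, OCILy10 cells given MZ1 for 6 h, and nothing in the labels tells of separate cultures. A p-value therefore describes these 3 libraries only, and differences between them may be technical. The chi-square test used below sets those differences against counting noise alone. The permutation test used for ratios gives the same smallest p whenever all 3 libraries share a direction. Untreated cells were not analysed here, and no effect of MZ1 was estimated. Per the labels, libraries were made with an Illumina TruSeq RNA kit from 1 µg of Trizol-extracted RNA.

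The mitochondrial chromosome is a small circle that encodes only core subunits of the respiratory chain and ATP synthase, the rRNAs of the mitochondrial ribosome and the tRNAs used to translate these mRNAs. Each strand is transcribed as a long precursor, tRNAs mark most of the places where it is cut, and most mRNAs then receive a short poly(A) tail. Fragments of this chromosome have been inserted into the nuclear genome many times, and these copies are mostly not translated.

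All but 1 of the mRNAs read like the plus strand of the reference sequence, which is rich in C and poor in G. The exception is MT-ND6, a complex I subunit gene on the minus strand, with 35.6% G and 7.05% C. The 12 plus-strand mRNAs have 6.28% to 16.2% G and 29.5% to 36.0% C. The first 60 bases of MT-ND6 (GRCh38, chrM:14614-14673, minus strand) and of its plus-strand neighbour MT-ND5 (chrM:12337-12396) show this, with every G in capitals, and are given because the results below divide by strand. There are 21 G in the first and 2 in the second.
MT-ND6: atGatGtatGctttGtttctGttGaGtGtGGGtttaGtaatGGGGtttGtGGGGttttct
MT-ND5: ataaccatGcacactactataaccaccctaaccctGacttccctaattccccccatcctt

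The mRNA genes lie close together, some with tRNA genes between them, and some share bases. MT-ATP8 and MT-ATP6, the ATP synthase subunit genes, overlap by 46 bases in different reading frames, and MT-ND4L and MT-ND4 by 7. The ends of the upstream genes are shown (chrM:8513-8572 and chrM:10746-10766, plus strand) with the shared bases in capitals, because a read there can belong to either gene. The capitals begin with the start codon of the downstream gene.
MT-ATP8 end: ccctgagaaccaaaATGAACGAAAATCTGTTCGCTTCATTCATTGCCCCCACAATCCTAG
MT-ND4L end: ctaaacctactccaATGCTAA

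Several mRNAs stop before their stop codon is complete, which the poly(A) tail finishes. The last bases of MT-ND4 (chrM:12120-12137), which encodes 1 base of it, of MT-ND1 (chrM:4245-4262), with 2, and of MT-CO2 (chrM:8252-8269), with a full codon, have that part in capitals.
MT-ND4: ttaccgggttttcctctT
MT-ND1: cattccccctcaaaccTA
MT-CO2: cccgtatttaccctaTAG

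Replicates 1, 2 and 3 held 5474462, 1441246 and 1314812 counts. Levels are given as CPM, the read count scaled to the TMM-adjusted size of its library, and 3 counts, the most that a count of 0 allows, correspond to 0.60, 1.89 and 2.30 CPM. Replicate 1 stood apart: antisense genes, a GENCODE class of noncoding genes opposite other genes, took 0.251% of its counts against 2.04% and 2.09% in replicates 2 and 3. Between libraries, 5890 of 10488 genes differed for replicates 1 and 2, 4700 of 10388 for 1 and 3 and 2858 of 8447 for 2 and 3 (chi-square test of counts), so no library was a repeat of another within counting noise. Of 8 B cell markers all were detected, with a summed level of 6346, 2180 and 4182 CPM. Of this sum CD74 gave 4439, 815 and 2085 CPM, and CD22, the lowest, 53.4, 10.1 and 5.37 CPM. Of 5 T cell markers only CD2 was in the table, with 7, 0 and 0 counts, and of 3 epithelial or stromal markers only COL1A1, at 4.80, 1.89 and 2.30 CPM. Of 4 myeloid markers 3 were in the table and summed to 40.0, 28.3 and 26.8 CPM, mostly MPO, and none of 3 erythroid markers was.

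The mitochondrial chromosome gave 14.9%, 14.2% and 13.7% of all counts in replicates 1, 2 and 3. Its mRNAs took 9.95%, 10.3% and 10.4% (10.2% ± 0.227, SD, n = 3). Within these shares MT-ND6, described below, took 0.0256%, 0.489% and 0.479% of all counts. The rRNAs took 4.94%, 3.89% and 3.34% and were lower in replicates 2 and 3. The tRNA genes took 0.0203%, 0.0195% and 0.0202%, and the nuclear copies 0.216%, 0.169% and 0.234%. Exact 95% binomial intervals, which cover counting error only, were 4.92% to 4.95% for rRNA in replicate 1 and 3.31% to 3.37% in replicate 3, and for tRNA 0.0191% to 0.0215% in replicate 1 and 0.0179% to 0.0228% in replicate 3.

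Per kb of exon, rRNA lay above mRNA in each of the 3 libraries, with a log2 ratio of 0.83 ± 0.32 (SD, n = 3). The mRNAs lay above tRNA genes by 5.43 ± 0.05. Ratios between classes compare counts in the libraries, not amounts of RNA in the cells. How library preparation affected the recovery of each class was not tested. The rRNA excess rests on MT-RNR2: without the highest gene of each class the ratio was -1.93. The mRNAs exceeded the nuclear copies by 5.44 ± 0.25, a 43.4-fold difference, and the rRNAs exceeded the copies by 6.27 ± 0.39 and the tRNA genes by 6.26 ± 0.28. The ratios to the copies kept their sign without MTATP6P1, the highest copy, but changed in size. For mRNA over copies the ratio was 7.59 without the highest member of each class and 6.98 without copies whose exons overlap another gene. Between the medians over members it was 10.59. The tRNA genes over the copies gave log2 ratios of -0.05, 0.25 and -0.17 in replicates 1, 2 and 3, and in the same 3 alternatives means of 1.65, 1.54 and 3.97. In the 5 pairs with a common direction the exact two-sided sign-flip permutation p was 0.25 (0.30 after Benjamini-Hochberg adjustment over 6 pairs), the smallest that 3 libraries allow, and for tRNA genes over copies it was 1.0, or 0.25 in each of these 3 alternatives.

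The 3 counts of each gene were compared by a chi-square test, with p-values adjusted over the whole table, where the mean count reached 10. Of 29 chromosome M genes 23 reached it, and 20 of these varied between libraries, against 67.2% of all 10016 genes tested. Without replicate 1 it called 13 of 22, against 33.8% of genes. The test gains power with depth, and MT-ND4 passed it with a highest level only 1.04 times the lowest (adjusted p = 1.99e-07). By size, 9 of the 23 genes had a highest level at least 2 times the lowest, against 52.4% of all genes tested. Without replicate 1 none of 22 did, against 20.7%. Counting noise also widens such a range for genes of few counts, and no share of all genes at matched counts was computed. These shares therefore do not show that the chromosome M genes are steadier than others. Replicate 1 was the highest library for 11 of the 23, against 43.8% of all genes tested, and the lowest for 8, against 32.1%.

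MT-RNR2, the large mitochondrial rRNA (ENSG00000210082.2, chrM:1671-3229, plus strand), was the highest gene of the table. It had 50293, 33354 and 32497 CPM in replicates 1, 2 and 3, and was thus highest in replicate 1. Replicates 2 and 3 lay closer together, but the chi-square test without replicate 1 called a difference between them (adjusted p = 2.92e-42). MT-RNR1, the small rRNA (ENSG00000211459.2, chrM:648-1601), had 3742, 1911 and 1215 CPM. Its share of rRNA counts was 6.93%, 5.42% and 3.60%, with exact intervals that do not overlap. Per kb MT-RNR2 lay above MT-RNR1 by log2 ratios of 3.04, 3.42 and 4.03 (11.3-fold on average, exact permutation p = 0.25, and 0.44 adjusted over 7 gene pairs). That too is a ratio of counts, and the amounts of both rRNAs in the cells were not measured. Replicates 2 and 3 lay below replicate 1 for both rRNAs under each of the 4 scalings tried.

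The 13 mRNAs ranked between 2 and 103 among all genes by mean CPM. On the scale of CPM per kb, MT-ATP6, MT-CO2 and MT-ND4 led with 18027 ± 4995, 15380 ± 2305 and 14146 ± 272 (SD, n = 3), and MT-ND4L was the lowest mRNA with 3855 ± 1163. Among the 15 rRNAs and mRNAs in order of mean level per kb, the ranges of all 14 pairs of neighbours overlapped. Only MT-ATP6 over MT-CO2 and MT-ND4L over MT-RNR1 held in 3 of 3 libraries by more than the SD of the log2 ratio. Apart from these pairs, the order of neighbours, also at the top of the list, is thus not resolved by these libraries.

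**Figure D1:**
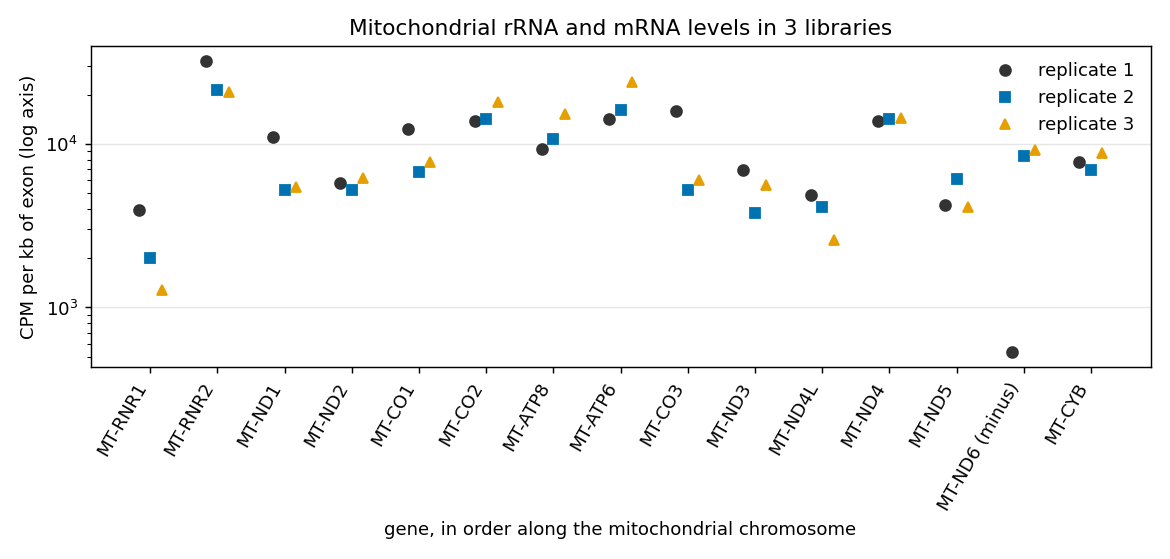
CPM per kb of exon (log axis) for the 2 rRNAs and 13 mRNAs in order along the mitochondrial chromosome, 1 point per library and no error bars. MT-ND4 is nearly the same in every library, whereas MT-ND6 lies at 533 in replicate 1 and at 8443 and 9197 in replicates 2 and 3.

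Complex I, the NADH dehydrogenase, has 7 mitochondrial subunits, whose mRNAs took 43.7%, 51.4% and 44.4% of mitochondrial mRNA counts. These shares include MT-ND6, described below, with 1399, 7053 and 6294 of the 237779, 76218 and 60520 complex I counts. Differences in the complex I share between libraries therefore depend in part on that gene. MT-ND4, a proton-pumping subunit, was the steadiest member, with 19117, 19496 and 19867 CPM. MT-ND5, another pumping subunit, had 7697, 11050 and 7431 CPM and was highest in replicate 2. MT-ND1 had 10568, 5007 and 5191 CPM, so replicate 1 was higher by 2.11 and 2.04 times. MT-ND2 stayed within 1.18 times between its highest and lowest library, at 5947 ± 504 CPM. Per kb, MT-ND1 lay above MT-ND2 by a log2 ratio of 0.93 in replicate 1, but the ratios were 0.01 and -0.18 in the others (exact permutation p = 0.75). MT-ND3 had 2390, 1300 and 1940 CPM, and MT-ND4L 1451, 1214 and 770.2 CPM. MT-ND4 exceeded its overlapping partner MT-ND4L per kb by 1.51, 1.79 and 2.47 (exact permutation p = 0.25), although reads at their junction can count for either.

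Complex IV, cytochrome c oxidase, has 3 mitochondrial subunits, which form its catalytic core. Their mRNAs took 37.5% of mitochondrial mRNA counts in replicate 1 and 26.0% and 27.7% in replicates 2 and 3. MT-CO3 (ENSG00000198938.2, chrM:9207-9990) had 12432, 4075 and 4696 CPM, a level 3.05 and 2.65 times higher in replicate 1 than in the others. MT-CO1 had 18965, 10362 and 11970 CPM and was also highest in replicate 1. MT-CO2 had 9471, 9756 and 12333 CPM and was not. The members of this complex therefore did not move together between libraries. MT-CO1 lay below MT-CO2 per kb in 3 of 3 libraries, by -0.17, -1.09 and -1.22 (exact permutation p = 0.25), while its ratio to MT-CO3 was -0.37 in replicate 1 and 0.37 in both others (exact permutation p = 0.50).

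Complex V, the ATP synthase, has MT-ATP6 and MT-ATP8, which are translated from 1 shared mRNA. Their counts were 10.7%, 14.2% and 18.4% of mitochondrial mRNA counts. MT-ATP6 (chrM:8527-9207) had 9700 CPM in replicate 1, 10997 in replicate 2 and 16132 in replicate 3, and MT-ATP8 (chrM:8366-8572) had 1919, 2202 and 3141 CPM. Both were highest in replicate 3, under each of 4 scalings. Their ratio per kb was the steadiest of the 7 gene pairs tested, at 0.62, 0.60 and 0.64 on the log2 scale (0.62 ± 0.02, exact permutation p = 0.25). Its size depends on how the overlap is treated: per kb of exon not shared with another gene the mean was 0.36. MT-CYB, the only mitochondrial subunit of complex III, had 8833, 7871 and 9973 CPM, within 1.27 times, and took 8.11%, 8.45% and 9.53% of mitochondrial mRNA counts.

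The largest difference among mitochondrial mRNAs was that of MT-ND6 (ENSG00000198695.2, chrM:14149-14673), the only one on the minus strand. Its raw counts were 1399, 7053 and 6294, although replicate 1 held the most reads in all, and its levels were 280 CPM in replicate 1, 4433 in replicate 2 and 4828 in replicate 3. Replicate 2 was thus 15.8 times and replicate 3 17.3 times replicate 1, and between replicates 2 and 3 no difference was detected (adjusted p = 0.38 without replicate 1). Relative to MT-CYB, the nearest mRNA gene beyond MT-TE and on the other strand, MT-ND6 had 3.17%, 56.3% and 48.4% as many counts. MT-ND5 lay above MT-ND6 per kb by a log2 ratio of 2.99 in replicate 1 and below it by -0.47 and -1.17 in the others, so the mean of 0.45 ± 2.23 describes none of them (exact permutation p = 1.0).

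The minus-strand genes, MT-ND6 and 7 tRNA genes, gave 0.191% of the chromosome's counts in replicate 1 (exact 95% interval 0.181% to 0.20%). They gave 3.56% (3.48% to 3.64%) in replicate 2 and 3.60% (3.51% to 3.69%) in replicate 3. MT-ND6 held 1399 of these 1555 counts in replicate 1, 7053 of 7278 in replicate 2 and 6294 of 6504 in replicate 3. The pooled share therefore mostly reflects MT-ND6, not the 7 tRNA genes. Of the 5 tested minus-strand genes, MT-ND6, MT-TE and MT-TY were at least 4 times higher in both replicates 2 and 3 than in replicate 1, and of the 18 tested plus-strand genes none were. That pattern held for 2.59% of all genes tested, and its threshold was chosen after the values were seen. The nuclear antisense share moved in the same direction, and a strand setting for the libraries or the counting was not given in the sources used here. Its part in these differences was not tested, and without a stated strand setting reads of a minus-strand gene cannot be told from RNA of the opposite strand at the same place.

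**Figure D2:**
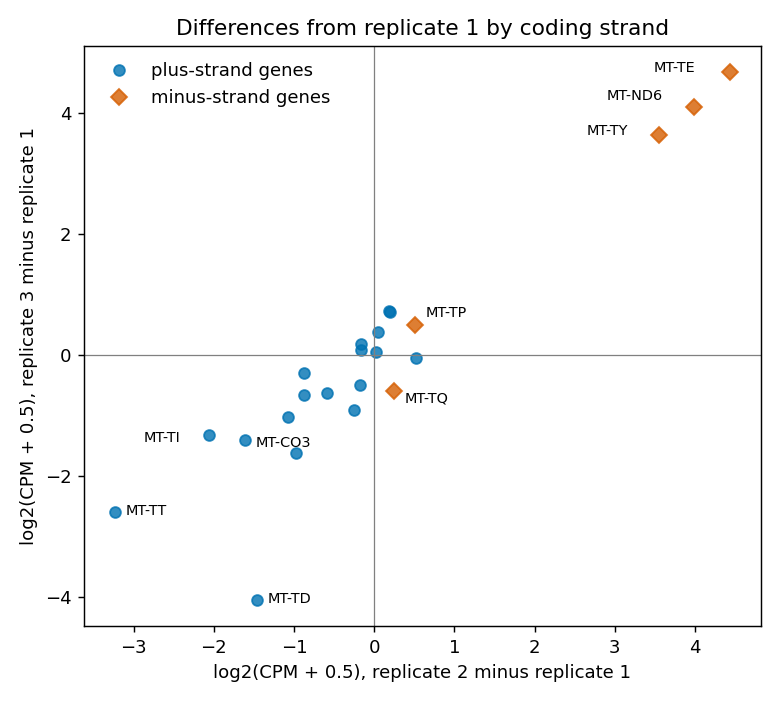
Difference in log2(CPM + 0.5) of replicate 3 (y axis) and replicate 2 (x axis) from replicate 1, 1 point for each of the 23 tested chromosome M genes. MT-ND6, MT-TE and MT-TY lie between 3.55 and 4.68 on both axes, apart from every plus-strand gene, while MT-TQ (0.25 and -0.60) and MT-TP (0.50 and 0.50), also on the minus strand, do not.

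Transfer RNAs are short, structured and not polyadenylated once mature, and reads on their genes can come from precursors or from the ends of neighbouring transcripts. MT-TE carries glutamate and lies on the minus strand beside MT-ND6, MT-TT carries threonine and lies on the plus strand after MT-CYB, and MT-TC (cysteine) and MT-TY (tyrosine) are minus-strand neighbours. Their genes are shown as the RNA reads (chrM:14674-14742, chrM:15888-15953, chrM:5761-5826 and chrM:5826-5891), with the anticodon in capitals, because MT-TE and MT-TT held most tRNA counts and moved in opposite directions.
MT-TE: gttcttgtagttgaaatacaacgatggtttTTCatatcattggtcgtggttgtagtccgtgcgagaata
MT-TT: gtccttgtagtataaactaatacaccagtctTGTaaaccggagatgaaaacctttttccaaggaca
MT-TC: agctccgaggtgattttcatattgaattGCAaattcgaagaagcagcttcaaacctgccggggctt
MT-TY: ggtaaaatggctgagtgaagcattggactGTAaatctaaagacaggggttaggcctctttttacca

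The steady total share of tRNA genes hid a change of members. Minus-strand genes made up 14.0% of tRNA counts in replicate 1 (156 of 1112; exact 95% interval 12.04% to 16.2%). They made up 80.1% in replicate 2 (225 of 281; 74.9% to 84.6%) and 78.9% in replicate 3 (210 of 266; 73.5% to 83.7%). MT-TE had 3.80, 92.4 and 110 CPM, from 19, 147 and 143 counts (adjusted p = 7.61e-95), and like MT-ND6 it was low only in replicate 1. It had 1.36%, 2.08% and 2.27% as many counts as MT-ND6. MT-TY had 2, 16 and 14 counts (adjusted p = 7.61e-10), MT-TC 1, 8 and 13 and MT-TS1, the serine tRNA gene after MT-CO1, 1, 2 and 10 counts, of which only MT-TY reached the minimum for a test over the 3 libraries.

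Not every minus-strand tRNA gene had this pattern. MT-TP, the proline tRNA gene, had 9.60, 13.8 and 13.8 CPM (adjusted p = 0.28), and MT-TQ, the glutamine tRNA gene that shares 3 bases with MT-TI on the other strand, 14.2, 16.97 and 9.21 CPM (adjusted p = 0.25). MT-TA, for alanine, had 14, 3 and 0 counts. None of these 3 was shown to be higher in replicates 2 and 3.

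On the plus strand 3 of 4 tested tRNA genes varied, against 67.2% of all genes, and these were highest in replicate 1, as were 43.8% of all genes tested. MT-TT had 146, 15.1 and 23.8 CPM, from 730, 24 and 31 counts (adjusted p = 6.04e-64), and was 9.68 and 6.14 times higher in replicate 1 than in replicates 2 and 3. It had 1.65% as many counts as the adjacent MT-CYB in replicate 1 and 0.192% and 0.238% in the others. MT-TI, the isoleucine tRNA gene, had 20.0, 4.40 and 7.67 CPM (adjusted p = 1.00e-05), and MT-TD, for aspartate, 39, 4 and 0 counts (adjusted p = 0.0014). MT-TW, for tryptophan, had 10.0, 8.80 and 6.90 CPM and did not pass the test (adjusted p = 0.62). MT-TF, MT-TL1 and MT-TM stayed under 25 counts in each library. Without replicate 1, 0 of the 7 tRNA genes tested varied (2 libraries, chi-square test), against 33.8% of all genes.

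**Figure D3:**
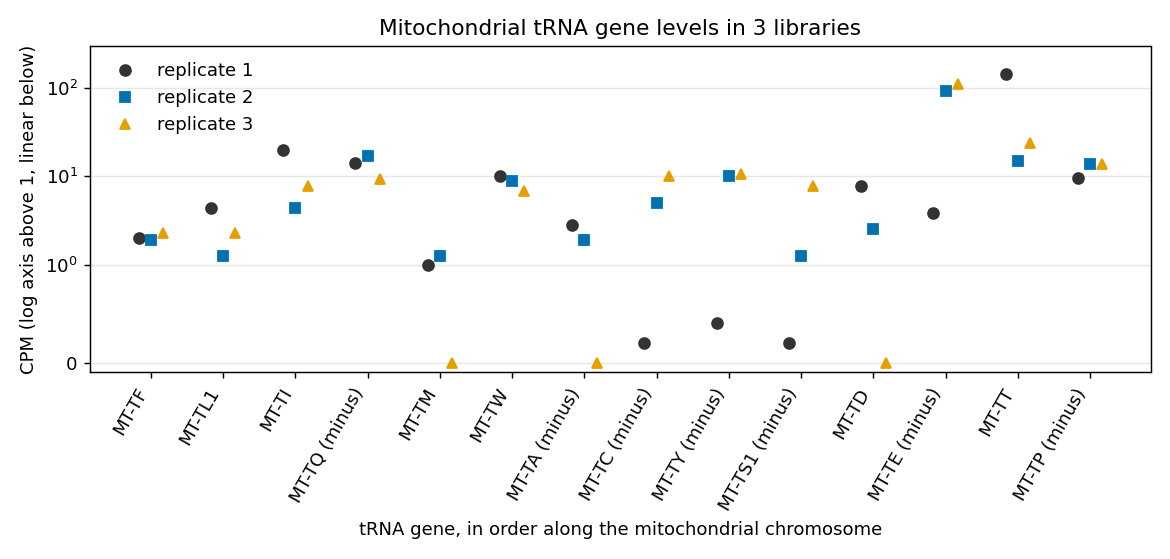
CPM of the 14 tRNA genes in order along the chromosome, 1 point per library, on an axis that is logarithmic above 1 and linear below; minus-strand genes are marked. MT-TE lies at 92.4 and 110 in replicates 2 and 3 and at 3.80 in replicate 1, and MT-TT at 146 in replicate 1 and at 15.1 and 23.8 in the others.

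The 11 nuclear copies lie in 2 blocks and 2 single places. On chromosome 1, 6 copies (MTND1P23, MTND2P28, MTCO1P12, MTCO2P12, MTATP6P1 and MTCO3P12, between 629062 and 634922, plus strand) follow the order of the mitochondrial chromosome and are 96.5% to 98.6% identical to their mitochondrial genes. On chromosome 5, MTND6P4, MTND5P11 and MTND4P12 (134924123 to 134928036) lie together within the span of PCBD2 and are 93.0% to 95.7% identical. MTCO2P33 on chromosome 6 and MTND4P20 on chromosome 10 are the most diverged, at 71.4% and 69.8%. A read can be assigned to a copy rather than to the mitochondrial gene only where it covers a difference. How many places allow this depends on the number of differences and on how they are spaced.

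Stretches of 60 bases where 4 of these copies differ most from the mitochondrial gene are shown, with differing bases in capitals, since only reads that cover such bases can tell the sources apart. Each is the first stretch with the most differences and no gap. They come from MT-ATP6 and MTATP6P1 (chrM:8642-8701 and chr1:633811-633870), MT-ND2 and MTND2P28 (chrM:4899-4958 and chr1:630069-630128), MT-CO1 and MTCO1P12 (chrM:6207-6266 and chr1:631377-631436), and MT-ND4 and MTND4P12 (chrM:10863-10922 and chr5:134927874-134927933, minus strand).
MT-ATP6: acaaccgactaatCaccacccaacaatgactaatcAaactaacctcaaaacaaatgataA
MTATP6P1: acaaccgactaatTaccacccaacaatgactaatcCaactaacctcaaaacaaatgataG
MT-ND2: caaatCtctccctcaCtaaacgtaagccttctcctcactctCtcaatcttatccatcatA
MTND2P28: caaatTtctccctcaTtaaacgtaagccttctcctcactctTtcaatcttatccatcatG
MT-CO1: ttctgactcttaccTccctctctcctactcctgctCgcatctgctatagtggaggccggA
MTCO1P12: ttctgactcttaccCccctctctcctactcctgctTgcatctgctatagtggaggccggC
MT-ND4: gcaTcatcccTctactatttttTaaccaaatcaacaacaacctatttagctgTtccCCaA
MTND4P12: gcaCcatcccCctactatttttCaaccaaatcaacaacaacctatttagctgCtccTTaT

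MTATP6P1 (ENSG00000248527.1) was by far the highest copy, with 10403, 1679 and 2472 counts or 2080, 1055 and 1896 CPM, and was lowest in replicate 2. It took 88.1%, 68.9% and 80.5% of all copy counts and ranked 71 among all genes. MTND2P28 (ENSG00000225630.1) was next, with 251, 425 and 413 CPM, and was lowest in replicate 1. The other 9 copies had at most 115 counts in a library. MTCO1P12 had 115, 27 and 28 counts, or 22.99, 16.97 and 21.5 CPM, and MTND4P12 12, 13 and 11 counts.

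The 3 copies with the most counts, MTATP6P1, MTND2P28 and MTCO1P12, were also the 3 most identical to their mitochondrial genes, at 98.5%, 98.4% and 98.6%. Within the chromosome 1 block, MTATP6P1 differs from MT-ATP6 at 10 of 681 bases and MTCO3P12 from MT-CO3 at 10 of 547, and MTCO3P12 had 6, 9 and 9 counts. Windows of 75 bases that hold at least 1 difference made up 71.99% of MTATP6P1, 78.0% of MTCO3P12, 65.6% of MTND2P28 and 63.4% of MTCO1P12. In the same block they made up 89.5% of MTCO2P12 and 51.5% of MTND1P23, the least identical copy of the block. Read length was not given in the sources used here, and with windows of 50 bases the shares of MTATP6P1 and MTCO3P12 were 53.3% and 54.8%.

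Of the counts of MTATP6P1 and MT-ATP6 together, the copy had 17.7% in replicate 1 (exact 95% interval 17.3% to 18.0%), 8.76% in replicate 2 (8.36% to 9.16%) and 10.5% in replicate 3 (10.1% to 10.9%). MTND2P28 moved the other way, with 3.99% of its pair in replicate 1 and 7.30% and 6.06% in replicates 2 and 3. MTCO1P12 had 0.121%, 0.164% and 0.179% with MT-CO1, with intervals of 0.10% to 0.145% in replicate 1 and 0.119% to 0.259% in replicate 3 that overlap. All the other copies stayed below 0.15% of their pair in every library. The counting of multiply mapped reads was not given in the sources used here, so reads of near-identical copies and mitochondrial genes cannot be told apart with certainty, and these shares are uncertain in that way.

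**Figure D4:**
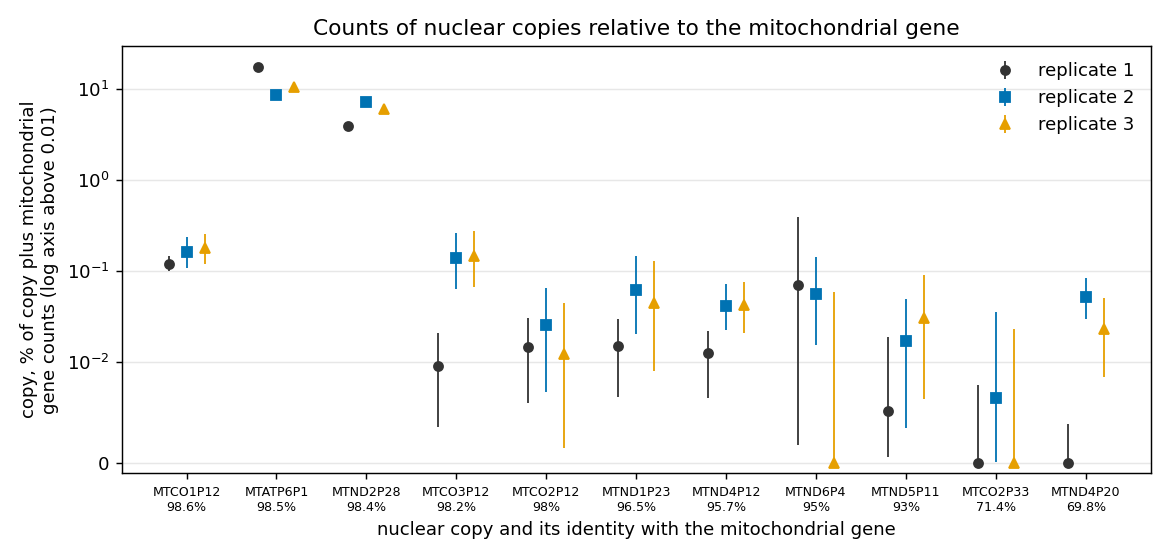
Counts of each nuclear copy as a percentage of the copy and its mitochondrial gene together (axis logarithmic above 0.01), in order of identity, 1 point per library with its exact 95% binomial interval. MTATP6P1 (8.76% to 17.7%) and MTND2P28 (3.99% to 7.30%) lie more than 10 times above the other 9 copies.

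Of the copies, 4 had a mean count of at least 10, and 3 of these varied between libraries, against 67.2% of all genes tested, a share near this background. MTND4P12 had 2.40, 8.17 and 8.44 CPM and was lowest in replicate 1 (adjusted p = 0.0019). MTCO1P12 did not pass (adjusted p = 0.41). Without replicate 1, only MTATP6P1 varied among 5 tested copies, against 33.8% of all genes. MTND4P20, on chromosome 10, had 0, 16 and 6 counts, and a count of 0 allows up to 0.60 CPM in replicate 1. Its longest run identical to MT-ND4 is 15 bases, and it lies within the span of another gene. MTATP6P1, MTND2P28, MTND1P23, MTCO3P12 and MTCO2P33 also lie within the span of another gene, as does the chromosome 5 block. MTCO1P12 and MTCO2P12 have exons that overlap a gene on the opposite strand, and MTATP6P1 overlaps MTATP8P1 and MTCO3P12 on its own strand. MTND1P23, MTCO2P12, MTND6P4, MTND5P11 and MTCO2P33 had 0 to 8 counts in each library.

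The nuclear genes that transcribe, cut, modify and degrade mitochondrial RNA were read from a list of 46, all in the table, of which 45 were tested. Of these, 32 varied between libraries, against 67.2% of all genes, and 19 had a 2-fold range, against 52.4%, both shares near the background. In 21 of the 46, exons overlap an opposite-strand gene, and these are named with that reservation. Of the transcription genes, TFAM, which packages mitochondrial DNA and starts transcription, had 228, 200.5 and 226 CPM and did not pass the test (adjusted p = 0.16). The initiation factor gene TFB2M had 32.6 ± 8.77 CPM, the polymerase gene POLRMT 32.4, 6.91 and 26.8 CPM and MTERF1 7.23 ± 2.60 CPM.

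Among genes of replication, SSBP1, the single-strand binding protein, had 134, 361 and 273 CPM, the helicase gene TWNK 62.5 ± 13.9, the polymerase gene POLG 43.4 ± 13.3 and PRIMPOL 18.1 ± 11.5 CPM. SSBP1, TWNK, POLG and PRIMPOL overlap opposite-strand exons. Of the genes of precursor cutting and polyadenylation, HSD17B10, a subunit of mitochondrial RNase P, had 119, 73.5 and 126 CPM. ELAC2, which cuts the tRNA 3′ end, had 118, 52.8 and 85.9 CPM, the RNase P subunit gene TRMT10C 45.9 ± 8.69 and KIAA0391, its nuclease, 7.60, 37.1 and 21.5 CPM, with an opposite-strand overlap. By role, 7 of 7 genes of cutting and polyadenylation, 2 of 6 of transcription, 4 of 6 of replication, 7 of 10 of stability and decay, 4 of 6 tested of rRNA modification and assembly and 8 of 10 of tRNA modification varied, against 67.2% of all genes tested.

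LRPPRC, which stabilises mitochondrial mRNAs, was the highest gene of the list at 828, 536 and 628 CPM. Its role also held PNPT1, a nuclease, at 172 ± 16.0 CPM (adjusted p = 0.13), GRSF1, an RNA granule protein, at 111 ± 16.9 and FASTK at 18.8, 1.89 and 14.6 CPM. Of the rRNA modification and assembly genes, ERAL1 had 43.4 ± 13.1, MTERF4 35.6 ± 9.05 and the methyltransferase genes MRM2 and MRM1 35.4 ± 9.83 and 2.50 ± 1.29 CPM. Of the tRNA modification genes, CDK5RAP1 had 67.3 ± 10.3 CPM, TRNT1, which adds the CCA end, 58.1 ± 25.5, PUS1, a pseudouridine synthase, 42.1 ± 21.2 and the methyltransferase gene NSUN3 6.32 ± 1.39 CPM. ERAL1, MTERF4, TRNT1, PUS1 and NSUN3 overlap opposite-strand exons.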

How the data were processed

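RNA sequencing of 3 libraries in 1 labelled group was used. The deposited table holds raw read counts, and the second deposited table, by its name and values, log2 CPM, which served as an alternative for the ratios between genes. The submitters' processing notes name hg38, STAR and edgeR. Versions, counting tool, strand setting, annotation release and handling of multiply mapped reads were not given in the sources used here. IDs without their version were matched to GENCODE release 29 (GRCh38) for 15668 genes. Counts were scaled with TMM (edgeR 4.0.16, R 4.3.3), with factors of 0.914, 1.10 and 0.991. With 1 group edgeR's test had no contrast, and the 3 counts were compared by a chi-square test. It used a mean count of at least 10 and Benjamini-Hochberg adjustment at 0.05 over all genes tested. The test was tried on simulated counts that held counting noise only, so that trial does not cover wider spread between real libraries. A pseudocount of 0.5 CPM was added before taking log2, so differences of low genes are understated. Ratios used an exact sign-flip permutation test within libraries (scipy 1.17.1). Lengths are merged exons. Copies were aligned to GENCODE transcripts with Biopython 1.88, and printed sequences come from the same file. Members and lists were chosen with earlier results of these data known. Named are all chromosome M genes, the 11 copies, both genes of each pair, and the 3 highest and the lowest gene of each role of the nuclear list by mean CPM. Alternatives were other scalings, count minimums, pseudocounts and lengths, changed members, thinned libraries and leaving out each replicate. Scaling by column totals moved the median of all genes by 0.26 (replicate 2 against 1) and 0.11 (replicate 3 against 1) on the log2 scale.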

Additional observations from a re-analysis of the deposited data

How the results depend on the processing

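Across 183 alternative values of 23 results, 21 moved by more than the limit set for their kind and 8 changed sign. The other 154 include ratios that kept only their sign: over the copies, rRNA ranged from 4.29 to 11.35 and mRNA from 5.30 to 10.59, and over the tRNA genes rRNA ranged from 4.00 to 7.64 and mRNA from 5.41 to 8.99. Leaving out each replicate in turn gave 13 to 19 varying chromosome M genes, 0 to 8 with a 2-fold range, 1 to 3 varying copies, 15 to 25 varying nuclear list genes and 7 to 13 of these with a 2-fold range, with the lowest value without replicate 1 in each case. The nuclear list counts also moved without replicate 2, to 19 and 8. The same range was -0.82 to 1.26 for the ratio of MT-ND5 to MT-ND6 and -0.082 to 0.47 for MT-ND1 to MT-ND2, both below 0 without replicate 1, and -0.11 to 0.10 for tRNA genes over copies, below 0 without replicate 2. Without a minimum count, 14 chromosome M genes and 6 copies had a 2-fold range and 6 copies varied. The 1 copy with a 2-fold range became 2 with column totals, and 0 with a mean count of at least 50 or with thinned libraries, where fewer copies were tested. With that minimum 11 nuclear list genes had a 2-fold range. Without division by length the ratio was -1.35 for rRNA over mRNA, -3.35 for tRNA genes over copies and 0.35 for MT-CO1 over MT-CO2. Without the highest member, rRNA over mRNA was -1.93, and the shares of counts were 0.224% for rRNA, 8.25% for mRNA, 0.0129% for tRNA and 0.0413% for copies. Copies without exon overlap took 0.0380%. Without minus-strand genes, chosen after seeing the data, the shares were 9.87% for mRNA and 0.0085% for tRNA, and tRNA genes over copies was -0.60. Where members or samples were not removed, the cause was not tested. No paired analysis was possible because there is 1 group. Depth limits the tRNA genes and copies of few counts.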
